A study of Mus musculus with 7 samples.

Results

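The 10 genes described here belong to the WNT system of C2C12 myotubes. They were chosen by symbol and are the ligands Wnt4, Wnt5a, Wnt9a and Wnt10a, the secreted antagonists Dkk2, Dkk3, Sfrp1 and Sfrp2, the feedback gene Axin2 and the R-spondin receptor Lgr6. All 10 were found among the 26607 genes listed for each library, and all 10 were above 0 in at least 1 library and so among the 19144 genes tested. C2C12 is an immortalised mouse myoblast line that fuses into myotubes when serum is lowered. RNA sequencing compared 3 libraries of unstimulated myotubes (control, numbered 1, 3 and 4) with 4 libraries of myotubes given electrical pulse stimulation (EPS, numbered 1 to 4), a treatment that makes cultured myotubes contract. Stimulation began after 3 days of differentiation in 2% serum, ran for 24 h and was followed by a rest of 1 h, and the control received no pulses. The comparison asks which transcripts differ after electrical stimulation in the absence of nerve, blood or other organs. The sources used here do not state whether the libraries are separate cultures, so p-values measure only the spread between these libraries. Values of single libraries are listed throughout in the order control 1, 3, 4 and EPS 1, 2, 3, 4, and coordinates are of the mouse genome build GRCm38.

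WNT proteins are secreted glycoproteins that bind Frizzled receptors together with the coreceptors LRP5 and LRP6. In the canonical branch, this stops the destruction of beta-catenin, which then enters the nucleus and acts with TCF and LEF transcription factors on target genes such as Axin2, whose protein rebuilds the destruction machinery and so limits the signal. Of the Dickkopf (Dkk) proteins, that of Dkk2 acts at LRP5 and LRP6, and secreted Frizzled-related proteins (Sfrp) bind the ligands themselves. In skeletal muscle, WNT ligands are known for roles in myoblast differentiation, satellite cells and regeneration.

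Recovered reads per library were between 16616917 and 22120641. Control 4 stood apart from the rest, with 359 genes at 1 to 5 reads where the other libraries had 2670 to 3181, and 14014 genes above 0 where they had 16144 to 16984. Results on the genes under 1 CPM in a library are therefore given with and without it. The floor used here, 3 reads, was 0.136 to 0.181 CPM (the reads of a gene scaled to a common library total). Of 10 myotube markers 0 passed the thresholds used below, and they summed to 11100 to 12820 CPM in the control and 9642 to 12077 CPM with EPS, though Actn2 was lower in all EPS libraries, at 75.6 ± 25.4 CPM (n = 3, SD) without and 36.6 ± 7.85 CPM (n = 4, SD) with stimulation (log2 fold change -0.99, adjusted p = 0.177 from limma). The other 9 had overlapping groups, with log2 fold changes from -1.07 (Myog) to 0.25 (Mylpf), of which 3 were above 0. Of 6 markers of undifferentiated or cycling myoblasts 0 passed, but their sum was 218 to 313 CPM in the control and 333 to 925 CPM with EPS, highest in EPS 4. Within this list the log2 fold changes of the cycling genes Mki67, Top2a, Ccnb1 and Cdk1 were 1.27, 0.86, 1.38 and 0.94, and those of the myoblast genes Pax7 and Myf5 -0.12 and 0.20, with overlapping groups in all 6. Of 6 fibroblast markers 0 passed, with sums of 1773 to 3944 and 1858 to 2865 CPM and Thy1 under 1 CPM, though Pdgfra was higher in all EPS libraries, at 18.9 ± 5.99 CPM (n = 3, SD) without and 30.3 ± 3.07 CPM (n = 4, SD) with stimulation (log2 fold change 0.70, adjusted p = 0.283 from limma). The log2 fold changes of the other fibroblast markers above 1 CPM were below 0, at -0.89 for Dcn, -0.89 for Lum, -0.26 for Col1a1 and -0.31 for Col1a2, with overlapping groups. Of 5 osteoblast markers 0 passed, with sums of 38.9 to 77.9 and 62.5 to 78.3 CPM, Ibsp at 0 and Sp7, Alpl and Bglap under 1 CPM. Of 4 adipocyte markers 0 passed, with sums of 4.25 to 6.32 and 5.76 to 12.6 CPM, Plin1 at 0 and Adipoq and Fabp4 under 1 CPM. The part of cycling cells, of Actn2 or of Pdgfra in the results below was not tested.

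Dkk2 and Lgr6 rose with EPS by the thresholds of limma P under 0.01 and more than 2-fold, and the other 8 WNT genes did not pass both. Wnt4, Axin2 and Wnt5a had P under 0.01 with changes under 2-fold on the log2(CPM + 1) scale, so 5 of 10 passed on P alone, each higher with EPS. Over all genes tested, 1.41% passed both thresholds (0.966% higher and 0.439% lower), 4.17% had P under 0.01 and 2.83% had P under 0.01 and were higher. In 6 of the 10 genes (those 5 and Dkk3) the EPS libraries all lay above the control libraries, and in 0 did they all lie below. These shares were 7.76% and 2.85% of all genes tested, and 9.18% and 3.49% of those with a mean of at least 1 CPM. Adjusted over all genes (Benjamini-Hochberg), 0 of the 10 had a limma p under 0.05, against 0.141% of all genes, while 5 of the 10 had an unadjusted p under 0.05, against 11.6%. With the fit limited to the 12256 genes with a mean of at least 1 CPM, which leaves out Wnt5a, 1 of the remaining 9 had an adjusted p under 0.05 (Lgr6, adjusted p = 0.0473 from limma), against 0.987% of those genes. On the recovered reads, edgeR's quasi-likelihood test gave 2 of the 10 an adjusted p under 0.05 (Dkk2 and Lgr6), against 1.51% of all genes, and DESeq2 gave 3 (these and Wnt4), against 3.39% of those it gave an adjusted p. The median log2 fold change of the 10 genes was 0.59. That of all genes tested was 0.041, and that of the 12256 genes with a mean of at least 1 CPM was 0.10. The genes were chosen with earlier results of these libraries known, so these shares describe them and are no test of the group.

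**Figure D1:**
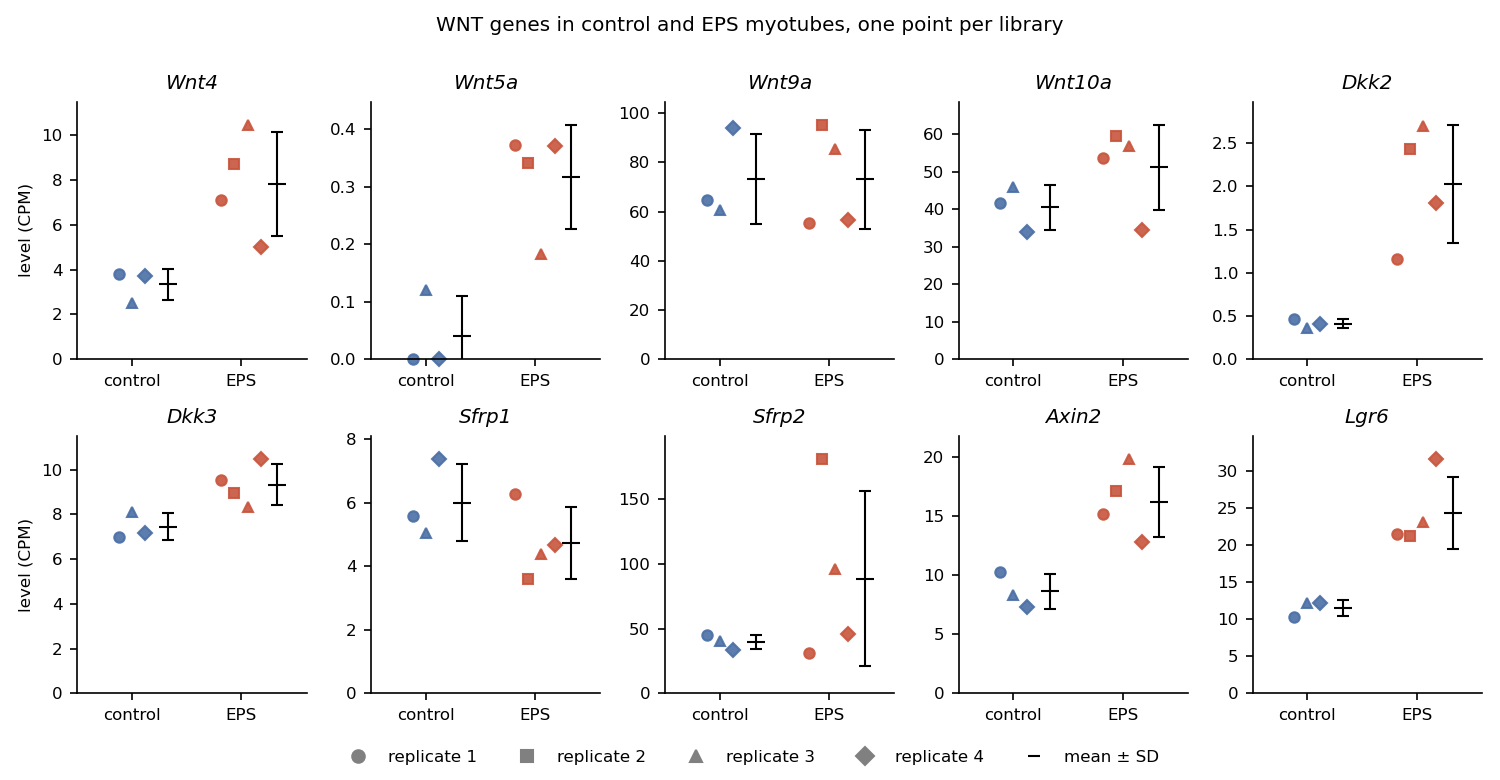
Level in CPM (y axis, linear, a scale of its own in each panel and starting at 0) of the 10 WNT genes in the control and EPS groups. Points are libraries, with the shape giving the replicate number, and bars are the mean ± SD (n = 3 control, n = 4 EPS). EPS points lie above all control points in Wnt4, Wnt5a, Dkk2, Dkk3, Axin2 and Lgr6, and overlap them in Wnt9a, Wnt10a, Sfrp1 and Sfrp2.

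Promoter sequence was found for 6 of the 10 genes in the RefSeq table for GRCm38.p6, namely Wnt4, Wnt9a, Dkk2, Sfrp2, Axin2 and Lgr6. The stretches printed are those of Dkk2, Lgr6, Wnt4 and Axin2, shown because these 4 genes had P under 0.01 and were higher with EPS. Each reads 5′ to 3′ on the gene's strand and leaves out bases inside annotated exons. Dkk2 is shown at chr3:132085042-132085265 on the plus strand, Lgr6 at chr1:135105375-135105526 on the minus strand, Wnt4 at chr4:137277385-137277488 on the plus strand and Axin2 at chr11:108920099-108920348 on the plus strand. Capitals mark GCGTG, the core of the xenobiotic response element bound by the aryl hydrocarbon receptor (CACGC when on the other strand), and the letters TATAAA, an element of some core promoters (the TATA box).
Dkk2: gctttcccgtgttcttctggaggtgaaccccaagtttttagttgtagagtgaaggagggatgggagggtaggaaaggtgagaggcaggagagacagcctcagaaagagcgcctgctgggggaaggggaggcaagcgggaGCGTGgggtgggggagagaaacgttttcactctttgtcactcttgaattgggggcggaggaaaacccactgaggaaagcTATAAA
Lgr6: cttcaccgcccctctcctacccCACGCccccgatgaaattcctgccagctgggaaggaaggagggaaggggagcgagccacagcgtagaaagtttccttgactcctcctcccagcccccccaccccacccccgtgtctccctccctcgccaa
Wnt4: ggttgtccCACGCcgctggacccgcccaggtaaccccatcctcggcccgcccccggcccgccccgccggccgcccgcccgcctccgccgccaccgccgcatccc
Axin2: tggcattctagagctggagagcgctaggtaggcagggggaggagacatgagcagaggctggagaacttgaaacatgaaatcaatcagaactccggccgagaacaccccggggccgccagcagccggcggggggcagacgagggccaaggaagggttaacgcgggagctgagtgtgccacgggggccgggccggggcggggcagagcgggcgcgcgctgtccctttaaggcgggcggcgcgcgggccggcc
The full 250 bases before each RefSeq gene start were searched on both strands. In Wnt4 and Wnt9a that start lies downstream of the GENCODE start given for the gene, so 146 and 2 of the bases searched lie inside the GENCODE gene. The TCF and LEF core, CTTTG followed by 2 bases that are each A or T, was present in 0 of the 6 promoters and in 14.8% of 32851 RefSeq promoters of that length. GCGTG was present in 5 of the 6, all but Axin2, against 28.2% of all promoters, and the AP-1 core TGANTCA in 0, against 6.75%. Dkk2 alone of the 6 had TATAAA, which begins 32 bases before its gene start and is found in 12.4% of promoters. The GC content of the windows was 85.2% in Wnt4, 84.4% in Wnt9a, 69.2% in Axin2, 65.2% in Lgr6, 63.6% in Sfrp2 and 55.6% in Dkk2. All are above the median of 52.4% over all promoters. GCGTG is itself rich in G and C, and the TCF and LEF core is mostly A and T. These are matches of letters in a short window, not binding sites, and sequence outside the 250 bases was not searched.

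Among the ligands with a mean of at least 1 CPM, Wnt4 had the largest log2 fold change over all libraries, ahead of Wnt10b, which was ahead of it without control 3, EPS 1 or EPS 3. Wnt4 (ENSMUSG00000036856.4, chromosome 4 from 137277489 to 137299726), known for roles in kidney, gonad and muscle development, was at 3.79, 2.53 and 3.71 CPM in the control libraries and at 7.12, 8.72, 10.5 and 4.99 CPM in the EPS libraries. The groups did not overlap, and EPS 4 was nearest to the control. The mean was 3.34 ± 0.706 CPM (n = 3, SD) without and 7.82 ± 2.33 CPM (n = 4, SD) with stimulation, a ratio of 2.34. Its log2 fold change of 0.99665 (standard error 0.29, limma P = 0.00797, adjusted p = 0.228, exact permutation p = 0.0571) lay just under the 2-fold threshold, and the smallest p that the 35 exact splits allow is 0.0286. With each library left out the change was between 0.85 and 1.17, but P stayed under 0.01 in 1 of 7 fits, that without EPS 4, which passed both thresholds. Quantile normalization (0.88) and median-of-ratios scaling (0.90) lost P under 0.01 as well. With a pseudocount of 0.5 in place of 1 Wnt4 passed both thresholds at 1.09, and on the recovered reads it did so in edgeR at 1.12 and in DESeq2 at 1.11. In bulk RNA, a difference in how many cells express a gene and a difference in RNA per cell cannot be told apart.

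Wnt5a (ENSMUSG00000021994.15, chromosome 14 from 28504750 to 28527448) encodes a ligand known mainly for signalling without beta-catenin. It was under 1 CPM in every library, with 0, 2 and 0 reads in the control and 8, 7, 4 and 7 reads with EPS. The groups did not overlap, but only 2 reads separate the nearest libraries. Pooled over the groups, 26 reads of 82732957 against 2 of 55890114 give a ratio of 8.78 with a 95% exact interval of 2.20 to 76.3, which covers counting error only. Leaving out control 4, in which few weak genes were counted, the ratio was 5.31 (interval 1.33 to 46.1). The change on the log2(CPM + 1) scale, 0.34 (standard error 0.074, limma P = 0.00137, adjusted p = 0.119, exact permutation p = 0.0571), is small because the pseudocount of 1 exceeds the level. With a pseudocount of 0.1, Wnt5a passed both thresholds at 1.65, while on the reads edgeR gave an adjusted p = 0.325 and DESeq2 an adjusted p = 0.313.

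Wnt9a and Wnt10a, known from joint formation and from tooth and skin development, were the ligands with the highest levels. Wnt9a (ENSMUSG00000000126.11, chromosome 11 from 59306928 to 59333552) was at 64.8, 60.8 and 94.2 CPM unstimulated and at 55.5, 95.2, 85.4 and 56.7 CPM stimulated. The ranges overlapped almost fully, with means of 73.3 ± 18.2 CPM (n = 3, SD) and 73.2 ± 20.2 CPM (n = 4, SD). Its log2 fold change was -0.015 with a 95% interval of -0.57 to 0.54 (adjusted p = 0.981 from limma), and the sign turned without control 4 (0.18), EPS 1 (0.10) or EPS 4 (0.092). Wnt10a (ENSMUSG00000026167.14, chromosome 1 from 74791516 to 74804179) was at 41.7, 45.9 and 34 CPM unstimulated and at 53.7, 59.6, 56.9 and 34.6 CPM stimulated. EPS 1, 2 and 3 were above all control libraries and EPS 4 was among them. The log2 fold change was 0.31 (95% interval -0.18 to 0.80, adjusted p = 0.633 from limma), 0.19 without control 4 and 0.48 without EPS 4.

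Set against gene length, in CPM per kb of exon in GENCODE M21, Wnt9a was at 22.0 ± 5.47 and Wnt10a at 16.4 ± 2.43 in the control (n = 3, SD), neighbours whose SDs overlap. Wnt10b followed at 1.35 ± 0.207, then Wnt4 at 0.797 ± 0.168, while Wnt5a was at 0.00513. With EPS the order of these was the same, with Wnt9a at 22.0, Wnt10a at 20.7, Wnt10b at 2.94, Wnt4 at 1.87 and Wnt5a at 0.0405. Wnt9a and Wnt10a together made up 89.3, 89.5 and 89.4% of the summed level per length of all 19 ligands in the control libraries, and 87.0, 85.7, 86.3 and 83.1% in the EPS libraries. The share of Wnt4 was 2.22, 1.46 and 1.88% in the control and 3.84, 3.38, 4.42 and 3.19% with EPS. In neither share did the groups overlap, a description chosen after the values were seen.

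**Figure D2:**
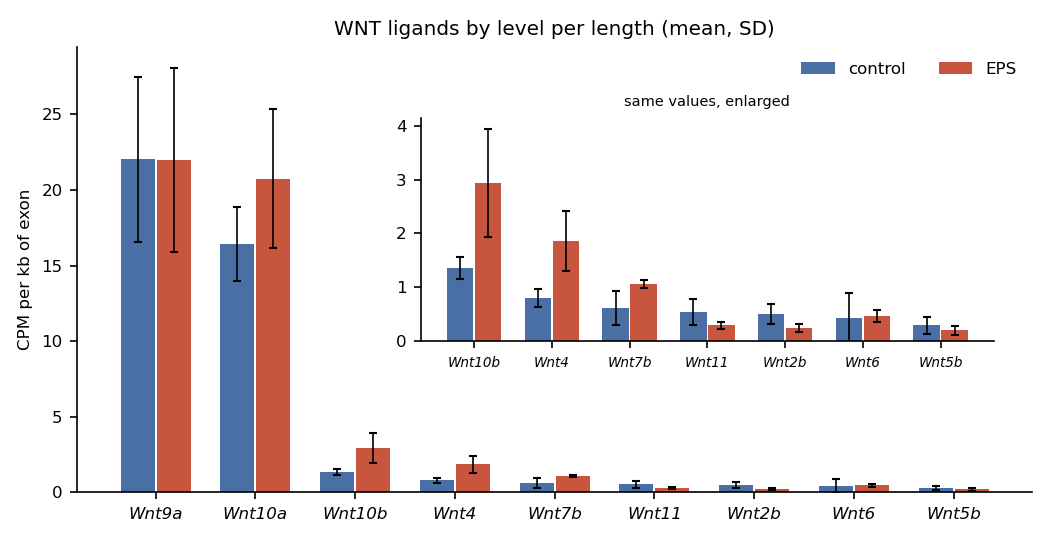
Level per length (y axis, mean CPM per kb of exon, linear from 0, bars with SD) of the 9 WNT ligands with the highest control means, in control (n = 3) and EPS (n = 4) libraries, with the 7 weaker ligands enlarged in the inset. Wnt9a and Wnt10a exceed the other ligands shown in both groups, and Wnt10b and Wnt4 have EPS means of 2.94 and 1.87 against control means of 1.35 and 0.797.

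On the log2(CPM + 1) scale Dkk2 had the largest fold change of the 10 genes over all libraries, though Lgr6 was ahead without EPS 2 or EPS 3 and Wnt4 without EPS 4, and on the recovered reads that of Wnt5a was larger, at 2.81 in edgeR and 2.98 in DESeq2. Dkk2 (ENSMUSG00000028031.6, chromosome 3 from 132085292 to 132180304) encodes a secreted protein that acts at LRP5 and LRP6. Of the 6 promoters searched, its own alone held the letters TATAAA, which 12.4% of all promoters hold. Control libraries held 8, 6 and 9 reads of Dkk2, or 0.466, 0.361 and 0.407 CPM. EPS libraries held 25, 50, 59 and 34 reads, or 1.16, 2.44, 2.69 and 1.81 CPM. The lowest EPS library, EPS 1, was above the highest control library by more than the whole control range. The mean rose to 2.02 ± 0.685 CPM (n = 4, SD) with stimulation, against 0.411 ± 0.0528 CPM (n = 3, SD) without, a ratio of 4.92. On the log2(CPM + 1) scale this was 1.07 (standard error 0.20, limma P = 0.000451, adjusted p = 0.0896, exact permutation p = 0.0571). The adjusted p was 0.0383 in edgeR's quasi-likelihood test, at a log2 fold change of 2.18, and between 0.00371 and 0.518 over all alternatives. Without control 4 the change was 1.07 and passed both thresholds. Without EPS 2 or EPS 3 it was 0.99929 or 0.96, under the 2-fold threshold with P still under 0.01.

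Dkk3 (ENSMUSG00000030772.6, chromosome 7 from 112116017 to 112159057) is a divergent member of the Dkk family, listed with the antagonists by its family. It was at 7.0, 8.12 and 7.19 CPM unstimulated and at 9.54, 8.96, 8.31 and 10.5 CPM stimulated. All EPS libraries were above the control, but EPS 3 only by a little, and the log2 fold change of 0.29 (95% interval -0.20 to 0.77, limma P = 0.209, adjusted p = 0.653, exact permutation p = 0.0571) did not pass. Per kb of exon, Dkk3 was at 2.21 and Dkk2 at 0.111 CPM in the control, and at 2.77 and 0.547 CPM with EPS.

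Sfrp1 (ENSMUSG00000031548.7, chromosome 8 from 23411502 to 23449632) was at 5.60, 5.06 and 7.37 CPM unstimulated and at 6.28, 3.6, 4.38 and 4.67 CPM stimulated. EPS 1 lay within the control range and the other EPS libraries below it, and the log2 fold change of -0.29 (95% interval -0.89 to 0.30, adjusted p = 0.718 from limma) did not pass. Sfrp2 (ENSMUSG00000027996.13, chromosome 3 from 83766321 to 83774316), at 18.5 CPM per kb in the control against 1.37 for Sfrp1, had the widest interval of the 10. It was at 45.3, 40.2 and 33.9 CPM unstimulated and at 31.4, 181, 96.2 and 46.1 CPM stimulated. EPS 2 and EPS 3 were far above the control, EPS 4 was just above it, and EPS 1 was below every control library. The log2 fold change of 0.83 had an interval of -0.34 to 2.00 (adjusted p = 0.588 from limma), and it was 0.39 without EPS 2 and 1.22 without EPS 1.

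Axin2 (ENSMUSG00000000142.15, chromosome 11 from 108920349 to 108950783), the feedback gene widely used as a readout of beta-catenin signalling, was at 10.3, 8.37 and 7.28 CPM unstimulated and at 15.2, 17.1, 19.8 and 12.8 CPM stimulated. The groups did not overlap, and the means of 8.63 ± 1.51 CPM (n = 3, SD) and 16.2 ± 2.97 CPM (n = 4, SD) gave a ratio of 1.88. The log2 fold change of 0.83 (standard error 0.23, limma P = 0.00570, adjusted p = 0.202, exact permutation p = 0.0571) passed on P but not on size. It was between 0.73 and 0.95 with each library left out, but P stayed under 0.01 in 2 of 7 such fits, those without control 1 or EPS 4. Quantile normalization (0.69) and median-of-ratios scaling (0.73) also lost P under 0.01. EPS 3 was the highest library for Axin2, Wnt4 and Dkk2 alike.

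Lgr6 (ENSMUSG00000042793.13, chromosome 1 from 134983301 to 135105276) encodes a receptor for R-spondins, secreted proteins that prolong WNT signalling by sparing Frizzled receptors from degradation. It was at 10.3, 12.2 and 12.2 CPM unstimulated and at 21.6, 21.3, 23.1 and 31.7 CPM stimulated. The control libraries were close together, and all EPS libraries were above them, with EPS 4 the highest. The mean rose to 24.4 ± 4.88 CPM (n = 4, SD), against 11.6 ± 1.08 CPM (n = 3, SD) in the control, a ratio of 2.11. Its log2 fold change was 1.0024 (standard error 0.20, limma P = 0.000893, adjusted p = 0.101, exact permutation p = 0.0286). The 2-fold threshold was barely met: quantile normalization gave 0.86, median-of-ratios scaling 0.90, edgeR 0.98 and DESeq2 0.97 on the recovered reads, and leaving out control 1 or EPS 4 0.93 or 0.88, each with P under 0.01. The related receptor Lgr4 did not pass, at 33.4 ± 3.83 CPM (n = 3, SD) and 40.7 ± 3.70 CPM (n = 4, SD) and a log2 fold change of 0.28.

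**Figure D3:**
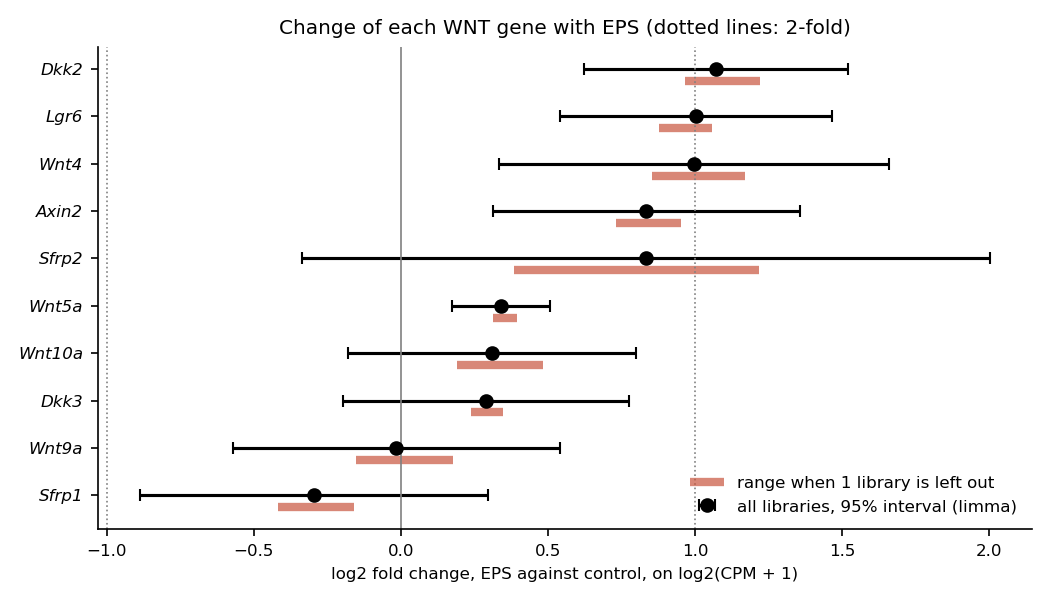
Log2 fold change of EPS against control on the log2(CPM + 1) scale (x axis) for each of the 10 WNT genes. Points are limma estimates over all libraries with their 95% intervals, and thick lines are the range when each library is left out in turn. The intervals of Dkk2, Lgr6, Wnt4, Axin2 and Wnt5a exclude 0, and that of Sfrp2, from -0.34 to 2.00, is the widest.

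The rest of the pathway was read from lists of 90 genes, the 10 included, of which 82 were above 0 and tested. Without the 10, 72 were tested, 0 passed both thresholds in limma, 11 had an unadjusted p under 0.05 (against 11.6% of all genes), and edgeR's quasi-likelihood test passed 3 at the same thresholds (Wnt10b and Nkd2 higher, Sfrp4 lower), against 3.29% of all genes. Among the 51 of these with a mean of at least 1 CPM, all EPS libraries exceeded the control in 5 (Wnt10b, Fzd1, Tcf7, Lef1 and Bcl9) and fell short of it in 2 (Sfrp4 and Rspo1), where 9.18% and 3.49% of all genes at that level did so. By list, over all libraries and with the 10 included, 1 of 13 antagonists tested (Dkk2) and 1 of 9 genes of the R-spondin axis (Lgr6) passed. The count was 0 of 15 ligands, 17 receptors and coreceptors, 2 secretion genes, 19 core genes and 13 feedback and target genes. The ligand Wnt7b was at 2.04, 2.17 and 4.84 CPM unstimulated and at 5.17, 4.77, 5.66 and 5.31 CPM stimulated. Control 4 lay above EPS 2, so the groups of Wnt7b overlapped. Over all libraries Wnt7b did not pass, at a log2 fold change of 0.70 (exact permutation p = 0.0571). It passed both thresholds as higher only when control 4 was left out, a fit named after the values were seen.

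TCF7 and LEF1, which are among the DNA-binding partners of beta-catenin, each had P under 0.01 and changes under 2-fold, with all EPS libraries above the control. Tcf7 was at 20.7, 26.8 and 17.3 CPM unstimulated and at 32.6, 39.3, 35.2 and 38.4 CPM stimulated (log2 fold change 0.75, limma P = 0.00306, adjusted p = 0.160, exact permutation p = 0.0286). Lef1 was at 9.56, 9.27 and 10.4 CPM unstimulated and at 16.1, 19.2, 14.8 and 14.6 CPM stimulated (log2 fold change 0.67, limma P = 0.00825, adjusted p = 0.231, exact permutation p = 0.0286). The partner genes Tcf7l1 and Tcf7l2, named after their values were seen, had overlapping groups and log2 fold changes of 0.13 (adjusted p = 0.813 from limma) and -0.36 (adjusted p = 0.537 from limma). In the list of 15 feedback and target genes, 13 were tested and 3 (Axin2, Tcf7 and Lef1) had P under 0.01, each higher, against 2.83% of all genes. The log2 fold changes of the 13 ran from -0.71 to 1.38, with a median of 0.13. The highest was that of Nkd2, whose groups overlapped (adjusted p = 0.338 from limma). Under quantile normalization and under median-of-ratios scaling Tcf7 kept P under 0.01 and Axin2 and Lef1 did not. Tcf7 lost it without control 1 or EPS 4, and Lef1 without control 1, control 3 or EPS 1 and in edgeR. Ccnd1, a cell cycle gene of that list, was at 44.7 ± 8.47 CPM (n = 3, SD) and 30.1 ± 18.4 CPM (n = 4, SD), a log2 difference of -0.71 (adjusted p = 0.531 from limma). It was -0.43 without EPS 2 and -1.06 without EPS 4, where it passed both thresholds as lower. Znrf3, a negative regulator of Frizzled, had a log2 fold change of -0.041. Ctnnb1, the beta-catenin gene itself, was at 603 ± 69.2 CPM (n = 3, SD) and 703 ± 78.9 CPM (n = 4, SD), a log2 difference of 0.22 (adjusted p = 0.735 from limma).

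Among the other secreted components, Wnt10b was at 3.96, 5.36 and 4.48 CPM unstimulated and at 6.24, 14.5, 9.55 and 9.72 CPM stimulated (log2 fold change 0.93, limma P = 0.0124, adjusted p = 0.259, exact permutation p = 0.0571). Sfrp4, an antagonist of the Sfrp family, was at 2.92, 2.35 and 1.85 CPM unstimulated and at 0.652, 1.07, 0.411 and 0.743 CPM stimulated (log2 fold change -0.97, limma P = 0.000539, adjusted p = 0.0946, exact permutation p = 0.0286). It was thus opposite in sign to Dkk2, and it lay just short of 2-fold with a pseudocount of 1. It passed both thresholds at -1.04 with quantile normalization, -1.04 with median-of-ratios scaling, -1.25 with a pseudocount of 0.5, -1.09 without control 4, -1.07 without EPS 2 and -1.83 on the recovered reads in edgeR. Rspo1, a ligand of the LGR receptors, was at 7.99 ± 2.25 CPM (n = 3, SD) and 4.78 ± 0.947 CPM (n = 4, SD) (log2 fold change -0.62, adjusted p = 0.410 from limma), and its change was -0.43 without control 4. The receptor gene Fzd1 was at 141 ± 19.9 CPM (n = 3, SD) and 204 ± 24.1 CPM (n = 4, SD), a log2 difference of 0.53 (adjusted p = 0.238 from limma), and Bcl9, a cofactor of beta-catenin, had 0.24. The genes with the highest mean CPM, not set against length, in the remaining lists did not pass. Wls and Porcn, which export and acylate WNT proteins, had log2 fold changes of 0.26 and -0.34. Those of Kremen1, a Dkk receptor, and of the kinase gene Csnk1a1 were -0.28 and -0.0036.

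**Figure D4:**
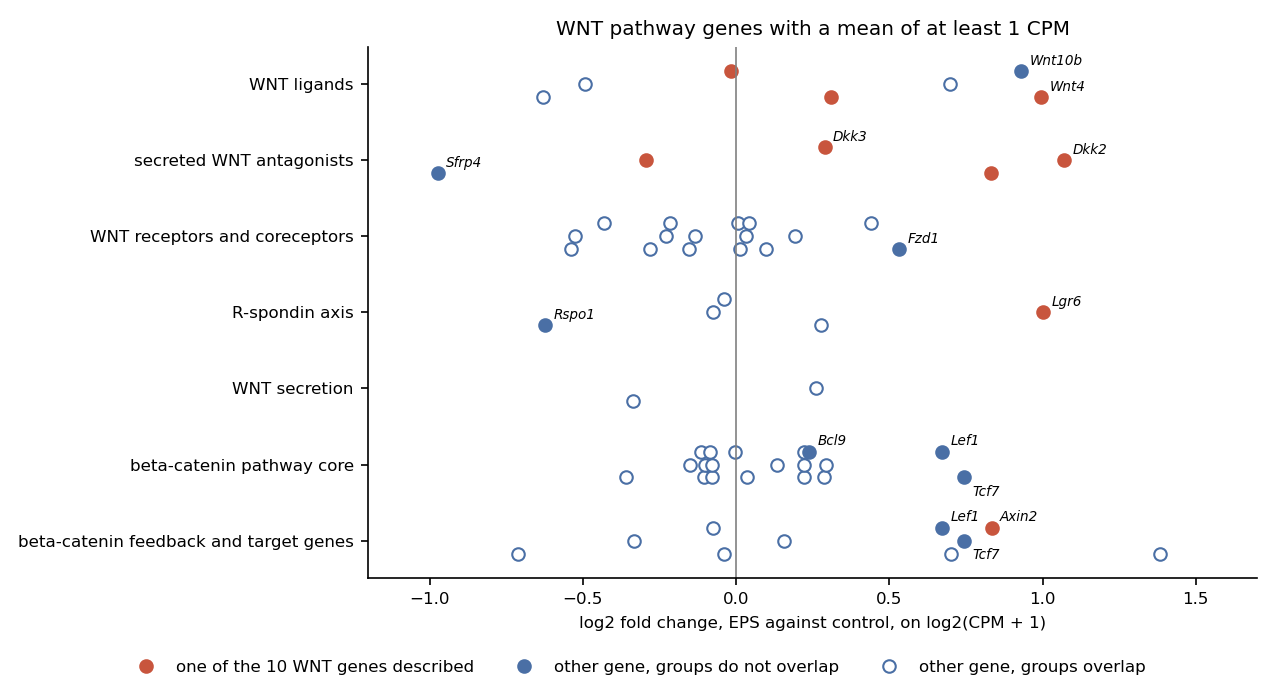
Log2 fold change of EPS against control on the log2(CPM + 1) scale (x axis) of the WNT pathway genes with a mean of at least 1 CPM, by list (y axis, with a small vertical offset for legibility). Red points are the WNT genes described, filled blue points other genes whose groups do not overlap and open points other genes, and a gene may stand in more than 1 list. Dkk2, Lgr6 and Wnt4 lie furthest to the right among genes whose groups do not overlap, and Sfrp4 furthest to the left.

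Over the 7 libraries, the genes whose log2(CPM + 1) followed Dkk2 most closely, among 12256 with a mean of at least 1 CPM, were F13a1, Tspan11 and Bmf, with Pearson r of 0.995, 0.985 and 0.984. For Wnt4 they were Fam189a1, Scrn1 and Hr, with r of 0.988, 0.988 and 0.986, and for Axin2 they were Acad10, Abca8b and Slc41a3, with r of 0.990, 0.989 and 0.985. Among those of the 10 genes with a mean of at least 1 CPM, Axin2 had an r of 0.94 with Wnt4 and 0.92 with Dkk2. The r was 0.75 with Wnt10a, 0.73 with Lgr6, 0.66 with Sfrp2, 0.54 with Dkk3, 0.10 with Wnt9a and -0.66 with Sfrp1. With so few libraries in 2 groups these values include the difference between the groups, and they are given as a description.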

How the data were processed

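Poly(A) RNA of C2C12 myotubes was sequenced as paired-end reads of 100 bp from directional libraries and, per the labels and the study's methods, mapped to GRCm38 with STAR 2.5.4b. The read counter, its annotation and its strand setting are not given in the sources used here, so overlapping genes cannot be told apart. The authors deposited CPM, the reads per gene divided by the library total, and 100% of values were whole multiples of 1 read (within 0.05 of a read), from which reads were recovered. log2(CPM + 1) was fitted with limma 3.58.1 in R 4.3.3 over the 19144 genes not at 0 throughout (trended empirical Bayes, EPS against control, no covariate), with thresholds of P under 0.01 and 2-fold and Benjamini-Hochberg adjustment. Single genes were also tested by a two-sided exact permutation test of mean CPM. Alternatives were edgeR 4.0.16 and DESeq2 1.42.0 on recovered reads, other pseudocounts, a filter at a mean of at least 1 CPM, other scalings, a stricter P, a block on replicate number and leaving out each library. The tests were tried on simulated data. The genes and lists were chosen with earlier results of these data known. Named genes are the 10 genes and other pathway genes past both thresholds or without overlap at a mean of at least 1 CPM. Also named are the 2 highest of each list by mean CPM, and the 3 genes closest to Dkk2, Wnt4 and Axin2. Nkd2, Wnt7b, Tcf7l1, Tcf7l2 and the single markers were added after values were seen. Coordinates and exon lengths are from GENCODE M21 and promoters from RefSeq, both on GRCm38.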

Additional observations from a re-analysis of the deposited data

Results flagged for a closer look

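Of the 25 EPS groups of 4 libraries examined for the genes named, 2 had a library far from the other 3 for their range, where chance gives about 1 in 20. Wnt5a was lowest in EPS replicate 3, at 0.183 CPM or 4 reads, against 7 or 8 reads in the other EPS libraries. Rspo1 was highest in EPS replicate 1, at 6.19 CPM, against 4.24 to 4.43 CPM in the other EPS libraries. Groups of 3 control libraries were not examined in this way.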

How the results depend on the processing

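The number of genes passing both thresholds, 269 in limma on log2(CPM + 1), was 601 with a pseudocount of 0.1, 629 in edgeR's quasi-likelihood test, 585 in DESeq2, 106 at P under 0.001, and 185 to 245 with 1 library left out. The 2 of the 10 WNT genes became 4 with a pseudocount of 0.1 (Wnt4 and Wnt5a added), 3 with a pseudocount of 0.5 (Wnt4 added), 1 with quantile normalization and 1 with median-of-ratios scaling (Dkk2 in each), and 1 or 2 with 1 library left out (1 without control 1, EPS 2 or EPS 3). On the recovered reads the count stayed at 2 in edgeR and in DESeq2, with Wnt4 in place of Lgr6. The 2 pathway genes became 6 with a pseudocount of 0.1, 4 with a pseudocount of 0.5, 5 in edgeR and 5 in DESeq2. With 1 library left out they became 1 to 4 (1 without control 1 or EPS 3, 4 without control 4 or EPS 1). Those 4 were Wnt7b, Dkk2, Sfrp4 and Lgr6 without control 4, and Wnt10b, Dkk2, Lgr6 and Nkd2 without EPS 1. The causes were not tested. Higher genes made up 185 of 269 calls on the deposited scale, 130 of 252 after quantile normalization and 134 of 254 after median-of-ratios scaling, and the median change over the 12256 genes averaging at least 1 CPM went from 0.10 to 0.0052 and -0.0048. The signs of 9 of the 10 WNT genes held in every alternative, and with 1 library left out Wnt9a ranged from -0.15 to 0.18, Znrf3 from -0.28 to 0.13 and Csnk1a1 from -0.072 to 0.044.

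With the replicate number as a block, which rests on 3 pairs, 160 genes passed, and of the 10 WNT genes 1 did (Lgr6 at 1.06), Dkk2 being at 0.99929 with an adjusted p = 0.518 from limma. Wnt4, Wnt5a, Axin2, Tcf7 and Lef1 did not have P under 0.01 under the block, and Sfrp4 passed both thresholds at -1.07. The samples share only a number: deviations of same-numbered libraries had an r of 0.25, -0.45 and 0.068 for numbers 1, 3 and 4, and not every library correlated best with its own number. Depth limits Wnt5a and the control level of Dkk2, which rest on 0 to 9 reads per library.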
